A study of Brassica rapa subsp. chinensis with 2 samples.

Results

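The WRKY family of transcription factors was examined in stems of 2 doubled-haploid (DH) lines of Brassica rapa at the bolting stage. A gene was taken as a member when the Swiss-Prot description of its best protein match named a WRKY transcription factor, and a description that also named disease resistance was left out. Of the 33087 genes in the deposited table, 134 were members, and all 134 had an Arabidopsis protein as their best match. The control, ‘FT’, is Chinese cabbage with a waxy surface. ‘CX001’ is a wax-less DH line of flowering Chinese cabbage, which carries the recessive wlm1 trait mapped by the study to the CER1 homologue BraA09g066480.3C on chromosome A09. No treatment separated the lines. Each line is 1 homozygous genotype from cultured microspores, so a difference at any gene cannot be told apart from the many other genetic differences between the 2 crops.

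RNA sequencing of total stem RNA was made from 3 libraries per line, 6 in all. No source used here states that the libraries of a line are separate plants, so a p-value below measures only the spread between these libraries. The deposited table holds a mean per line, in normalised read counts, which are reads divided by the size factor of the library. Each mean is a sum of whole numbers of reads in the 3 libraries, and the reads of each library could be solved from it for 32911 genes. The libraries are numbered 1 to 3 within a line here by the value of 1 read, which need not be the authors' numbering. The recovered reads came to between 13485053 and 15179348 per library. Across the 26424 genes tested, the correlation of log2 values was 0.949 to 0.976 within a line and 0.750 to 0.788 between the lines, given as a description. The CER1 homologue had a mean of 16922 normalised reads in ‘FT’ and 14.3 in ‘CX001’ (6, 12 and 24 reads in its 3 libraries), in the direction of the labels.

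WRKY proteins bind DNA through a domain named after its conserved amino acids, followed by a zinc finger, and they recognise the W box found in the promoters of many plant genes. In Arabidopsis they are best known for switching defence, senescence and stress genes on or off, and several act in stem wall formation, flowering and the epidermis. The family is divided into group I, with a pair of WRKY domains, group II, with a single domain and subgroups IIa to IIe, and group III, whose single domain has another type of zinc finger. Many members are themselves targets of WRKY proteins, and their proteins are acted on by mitogen-activated protein (MAP) kinases and by VQ proteins, which bind the WRKY domain.

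The family name held for most of the 134 genes. The deposited annotation gave 118 of them both the GO terms for transcription factor activity and for sequence-specific DNA binding, and the second protein match named WRKY for 113 of these 118. Their coding lengths ran from 414 to 2121 bases and they matched 60 different Arabidopsis WRKY factors. The other 16 genes were not given both terms, and all were matched to WRKY16 (5 genes) or WRKY19 (11 genes). In Arabidopsis WRKY16 and WRKY19 are large defence proteins with a WRKY domain attached. Of these 16, 9 carried the term for signal transduction, 6 belonged to a single eggNOG family, virNOG00732, and had no GO term, and their coding lengths ran from 1539 to 6660 bases. They are therefore described apart, as matches to WRKY16 and WRKY19, and the 118 are called WRKY factor genes.

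Genes were tested where the average of both line means was at least 5, by limma on log2(normalised read count + 1), and were called higher or lower in ‘CX001’ at an adjusted p below 0.05 with a log2 difference over 1 in size. Among the 101 members tested, 14 were higher in ‘CX001’ (13.9%, against 14.2% of all genes tested) and 22 were lower (21.8%, against 15.8%). The remaining 65 did not pass. In either direction 35.6% of members passed, against 30.0% of all genes, so that the 2 lines differed at a large share of the transcriptome and the family as a whole lay close to it. The median log2 difference of the members was -0.18, against 0.00 over all genes. Of the 89 WRKY factor genes tested, 12 were higher, 18 were lower and 59 did not pass. The libraries of the lines did not overlap for 58 of the 101 members, 26 with ‘CX001’ above ‘FT’ (background 29.4%) and 32 below (background 28.9%), and the background in either direction was 58.3%.

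The calls were spread unevenly over the structural groups of the 89 WRKY factor genes tested. Over all genes tested, 14.2% were higher and 15.8% lower. Group III had 8 lower (66.7%) and 0 higher of 12, and group IIa had 3 lower (50%) and 0 higher of 6. Group IIc had 6 higher (27.3%) and 2 lower (9.09%) of 22. Group I lay close to the background, with 4 higher (16.7%) and 3 lower (12.5%) of 24. Group IIb had 1 higher and 1 lower of 4 (25% each). Group IId had 1 higher and 1 lower of 14 (7.14% each), and none of the 7 tested genes of group IIe passed. The median log2 differences were -1.59 in group III, -1.31 in IIa, 0.37 in IIc, -0.03 in I, 0.02 in IIb, -0.03 in IId and -0.13 in IIe. With an average of at least 50 normalised reads required, 8 genes of group IIc were tested, 2 higher and 2 lower, and 13 of group I, 1 higher and none lower, while group III had 7 lower of 9 and group IIa 3 lower of 5. The difference between groups was not tested.

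**Figure D1:**
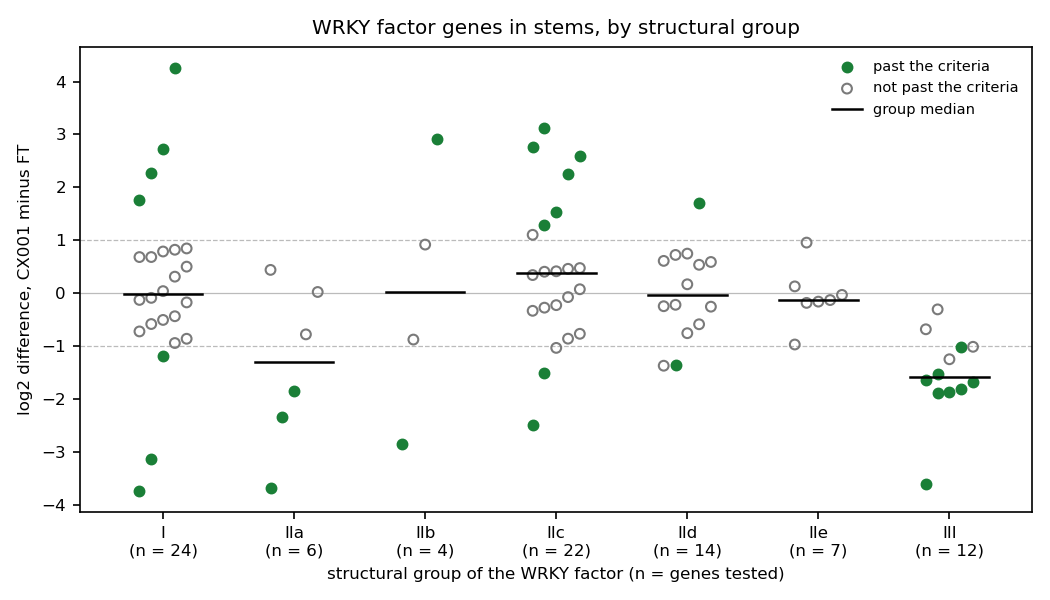
Log2 difference (‘CX001’ minus ‘FT’) of each of the 89 WRKY factor genes tested, by structural group. Filled points passed the criteria, open points did not, the short black line is the group median and the dashed lines mark a log2 difference of 1 in either direction. All 12 points of group III lie below 0, with a median of -1.59, while the median of group I is -0.03.

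Group III held the most genes lower in ‘CX001’. All 12 tested had a log2 difference below 0, as did 13203 of the 26424 genes tested in all. Of the 12, 8 passed as lower (66.7%, against a background of 15.8%). In 10 the libraries of the lines did not overlap, with ‘CX001’ below ‘FT’ (background 28.9%). In Arabidopsis this group holds the factors most closely tied to salicylic acid, the hormone of defence against biotrophic pathogens, and to leaf senescence. The largest difference was in BraA09g033340.3C, the match to WRKY62, whose Arabidopsis counterpart is induced by salicylic acid. It had 218, 183 and 331 normalised reads in the ‘FT’ libraries and 17.9, 28.95 and 11.8 in those of ‘CX001’, a 12.5-fold lower mean (log2 difference -3.62, SE 0.37, adjusted p = 0.00015). The lowest ‘FT’ library stood far above the highest of ‘CX001’.

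WRKY70 raises salicylic acid responses and lowers jasmonate responses in Arabidopsis, and 3 genes matched it. BraA09g047100.3C had 333, 295 and 575 normalised reads in ‘FT’ and 134, 85.9 and 199 in ‘CX001’ (log2 difference -1.53, SE 0.35, adjusted p = 0.0075). BraA04g004020.3C had 161, 156 and 394 normalised reads in the ‘FT’ libraries and 84.005, 24.1 and 89.98 in those of ‘CX001’ (log2 difference -1.90, SE 0.55, adjusted p = 0.022). In both, every ‘CX001’ library was below every ‘FT’ library, and ‘FT’ library 3 was the highest of the 6. Without that library the call on BraA04g004020.3C was lost, with a log2 difference of -1.46 and an adjusted p of 0.086. The third copy, BraA07g022390.3C, had the highest level of all members per kilobase of coding sequence, 1384 normalised reads in ‘FT’ and 861 in ‘CX001’. Its values were 1041, 1010.1 and 1487 normalised reads in ‘FT’ and 552, 846 and 803 in ‘CX001’. They did not overlap, but the difference was too small for the criteria (log2 difference -0.69, SE 0.21, adjusted p = 0.028).

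WRKY53 promotes leaf senescence in Arabidopsis, and both genes matched to it were lower in ‘CX001’. BraA01g014490.3C, one of the 5 members with the highest level per coding length (609 normalised reads per kilobase in ‘FT’), had 509, 333 and 894 normalised reads in ‘FT’ and 159.5, 187 and 152 in ‘CX001’ (log2 difference -1.68, SE 0.32, adjusted p = 0.0033). BraA03g051480.3C was lower in level and had 55.8, 58.7 and 101 normalised reads in the ‘FT’ libraries and 22.7, 12.5 and 23.6 in those of ‘CX001’ (log2 difference -1.82, SE 0.38, adjusted p = 0.0048). In each copy ‘FT’ library 3 was the highest of the 6, and the lines did not overlap.

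WRKY46 acts with WRKY70 and WRKY53 in Arabidopsis defence. Of its 3 matches, BraA05g001400.3C had 464, 223 and 349 normalised reads in ‘FT’ and 105, 81.1 and 84.6 in ‘CX001’ (log2 difference -1.87, SE 0.27, adjusted p = 0.00089), and no library of one line reached the other. BraA04g001080.3C, named after its values were seen, had 66.4, 48.1 and 182 normalised reads in ‘FT’ and 31.1, 17.4 and 32.1 in ‘CX001’ (log2 difference -1.65, SE 0.51, adjusted p = 0.027). Its ‘FT’ library 3 was well above the rest of the line, and the call was lost without that library (-1.09, adjusted p = 0.069), without ‘FT’ library 1 (-1.82, adjusted p = 0.053) and without ‘CX001’ library 2 (-1.38, adjusted p = 0.093). The third match was below the minimum for testing. WRKY54, the closest relative of WRKY70, had 1 of 3 matches called, BraA03g021610.3C, also named after its values were seen. It had 165, 259.99 and 159 normalised reads in the ‘FT’ libraries and 90.6, 76.2 and 115 in those of ‘CX001’ (log2 difference -1.03, SE 0.26, adjusted p = 0.012), just past the fold required, and fell short of that fold without ‘FT’ library 2 (-0.80) and without ‘CX001’ library 2 (-0.89). Of the group III genes tested, 8 were called lower without ‘FT’ library 2, 6 without ‘FT’ library 3 and 6 without ‘CX001’ library 2. The 10 members of group III that were not tested, among them all matches to WRKY30, WRKY38 and WRKY55, had line means of at most 9.76 normalised reads.

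Group IIa had only matches to WRKY18 and WRKY40, with 3 genes each, and none to WRKY60, the remaining member of that subgroup in Arabidopsis. WRKY18 and WRKY40 bind to each other and hold back early defence responses in Arabidopsis. A pair of the WRKY40 copies was lower in ‘CX001’. BraA07g026010.3C had 521, 108 and 205 normalised reads in ‘FT’ and 8.49, 25.1 and 21.4 in ‘CX001’, a 15.1-fold lower mean (log2 difference -3.68, SE 0.60, adjusted p = 0.0015). BraA02g025510.3C, among the 5 highest members per coding length (760 normalised reads per kilobase in ‘FT’), had 1021, 288 and 681 normalised reads in ‘FT’ and 82.1, 240.3 and 74.98 in ‘CX001’ (log2 difference -2.35, SE 0.55, adjusted p = 0.0085). The lines did not overlap in either, but the ‘FT’ libraries of each copy spread over more than the width that separated the lines at their nearest. The remaining copy, BraA07g042700.3C, had 592, 276 and 336 normalised reads in the ‘FT’ libraries and 97.2, 599 and 184 in those of ‘CX001’. Its lines overlapped, since ‘CX001’ library 2 was the highest of all 6, and it did not pass (log2 difference -0.78, SE 0.60, adjusted p = 0.31). Without that library it did (-1.50, adjusted p = 0.023).

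Of the WRKY18 copies, BraA03g056960.3C had 772, 201 and 255 normalised reads in ‘FT’ and 74.6, 201 and 55.7 in ‘CX001’ and passed (log2 difference -1.84, SE 0.59, adjusted p = 0.032). The lowest ‘FT’ library and the highest of ‘CX001’ were nearly level, and the call was lost without ‘FT’ library 1 (-1.26, adjusted p = 0.10), without ‘FT’ library 3 (-2.05, adjusted p = 0.060), without ‘CX001’ library 1 (-1.68, adjusted p = 0.091) and without ‘CX001’ library 3 (-1.47, adjusted p = 0.11). BraA01g006130.3C had 387, 139.6 and 422 normalised reads in ‘FT’ and 219, 549 and 472 in ‘CX001’ (log2 difference 0.44, SE 0.47, adjusted p = 0.47). BraA08g017290.3C had 48.1, 15.4 and 48.5 normalised reads in the ‘FT’ libraries and 18.9, 42.5 and 47.1 in those of ‘CX001’ (log2 difference 0.02, SE 0.54, adjusted p = 0.98). Neither of these copies separated the lines, and in both ‘FT’ library 2 was the lowest of the 6.

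A like spread between libraries ran through the 12 copies of WRKY18, WRKY33, WRKY40 and WRKY48, a set put together after their values were seen. In 11 of the 12 the lowest ‘FT’ value was in library 2, which was the lowest of its line for 36% of all genes tested and 41.6% of the WRKY factor genes tested. In 8 of the 12 the highest ‘CX001’ value was in library 2, which was the highest of its line for 31% of all genes tested and 37.1% of the WRKY factor genes tested. The highest ‘FT’ library was between 1.71 and 4.83 times the lowest, leaving out BraA05g007160.3C, whose lowest library held 1 read (8, 1 and 7 reads in ‘FT’). The WRKY factor genes tested varied more between libraries of a line than the genes tested in all. Their median standard deviation was 0.47 in ‘FT’ and 0.48 in ‘CX001’ on the log2 scale, against 0.23 and 0.26 over all genes tested. The median level of WRKY factor genes, with those not tested included, was also lower. It was 28.7 normalised reads in ‘FT’ and 30.7 in ‘CX001’, against 109 and 100.2 over all genes, tested or not. The part of level in this spread was not tested.

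**Figure D2:**
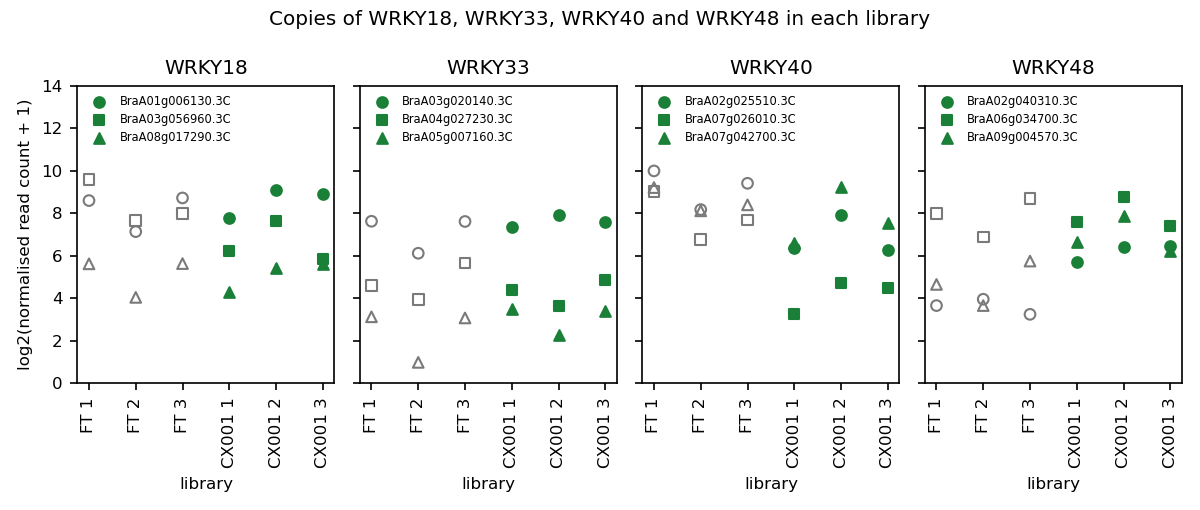
Log2(normalised read count + 1) of the 12 copies of WRKY18, WRKY33, WRKY40 and WRKY48 in each of the 6 libraries, with open symbols for ‘FT’, filled symbols for ‘CX001’ and 1 symbol shape per copy. In 11 of the 12 copies ‘FT’ library 2 holds the lowest value of its line, and in 8 ‘CX001’ library 2 holds the highest of its own.

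Group I factors carry a pair of WRKY domains and include WRKY33, the main activator of the phytoalexin camalexin in Arabidopsis, which is phosphorylated by the MAP kinases MPK3 and MPK6. None of the 3 matches to WRKY33 passed. BraA03g020140.3C had 196, 68.4 and 195 normalised reads in ‘FT’ and 162, 238 and 193 in ‘CX001’ (log2 difference 0.50, SE 0.40, adjusted p = 0.33). BraA04g027230.3C had 23.1, 14.4 and 49.5 normalised reads in ‘FT’ and 19.8, 11.6 and 27.9 in ‘CX001’ (log2 difference -0.44, SE 0.52, adjusted p = 0.51). BraA05g007160.3C, which was barely detected, had 7.70, 0.963 and 7.38 normalised reads in the ‘FT’ libraries and 10.4, 3.86 and 9.64 in those of ‘CX001’ (log2 difference 0.68, SE 0.69, adjusted p = 0.44). The lines overlapped in all 3 copies.

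WRKY25, a relative of WRKY33 with a part in heat tolerance in Arabidopsis, was higher in ‘CX001’ in 2 of its 3 matches. BraA04g021550.3C had 79.9, 33.7 and 32.7 normalised reads in ‘FT’ and 226, 318 and 375 in ‘CX001’, a 6.28-fold higher mean (log2 difference 2.72, SE 0.37, adjusted p = 0.00062). BraA03g016110.3C, named after its values were seen, had 5.78, 6.74 and 12.6 normalised reads in ‘FT’ and 19.8, 53.1 and 69.6 in ‘CX001’ (log2 difference 2.27, SE 0.53, adjusted p = 0.0088). In both, every library of ‘CX001’ lay above every library of ‘FT’.

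Of the 2 genes matched to WRKY2, 1 was nearly silent in ‘FT’. In Arabidopsis WRKY2 acts in pollen and in the polarity of the zygote. The gene, BraA03g013050.3C, had 6.74, 1.93 and 0 normalised reads in the ‘FT’ libraries and 53.8, 55.97 and 49.3 in those of ‘CX001’, an 18.4-fold higher mean in ‘CX001’ (log2 difference 4.25, SE 0.69, adjusted p = 0.0015). The ‘CX001’ libraries were within a narrow range, and the ‘FT’ line rested on few reads. The other match to WRKY2, BraA10g014130.3C, named after its values were seen, had more reads and lay the other way. Its means were 384 normalised reads in ‘FT’ and 234 in ‘CX001’, without overlap but short of the fold required (log2 difference -0.73, SE 0.20, adjusted p = 0.019). BraA03g030680.3C, a match to WRKY58, had 6.74, 25.04 and 30.6 normalised reads in ‘FT’ and 36.8, 97.5 and 65.3 in ‘CX001’ (log2 difference 1.76, SE 0.59, adjusted p = 0.038). Its lines were separated by a small gap, and the call was lost without ‘FT’ library 1 (1.13, adjusted p = 0.093), ‘FT’ library 2 (2.01, adjusted p = 0.056), ‘CX001’ library 2 (1.43, adjusted p = 0.13) or ‘CX001’ library 3 (1.72, adjusted p = 0.094).

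WRKY44 is known in Arabidopsis as TTG2, a factor of the epidermis that shapes leaf hairs and the seed coat, and both genes matched to it were lower in the wax-less line. BraA05g008220.3C had 10.6, 5.78 and 16.9 normalised reads in ‘FT’ and 0, 0 and 1.07 in ‘CX001’ (log2 difference -3.13, SE 0.57, adjusted p = 0.0027). Only 1 read stood for it in ‘CX001’, where its level was 3.22% of that in ‘FT’ (95% exact Poisson interval 0.0816 to 18%, counting error only). BraA03g019460.3C had 31.8, 45.3 and 46.4 normalised reads in the ‘FT’ libraries and 25.5, 15.4 and 12.9 in those of ‘CX001’ (log2 difference -1.19, SE 0.36, adjusted p = 0.027). Its lines did not overlap, but the adjusted p rose above 0.05 without ‘FT’ library 2 (0.082), ‘FT’ library 3 (0.084), ‘CX001’ library 2 (0.076) or ‘CX001’ library 3 (0.071). The summed level of 5 genes matched to the epidermal markers ATML1 and PDF2 was 508, 823 and 806 normalised reads in the ‘FT’ libraries and 832, 744 and 612 in those of ‘CX001’, so the lines overlapped there and none of the 5 passed. In RNA of a whole stem, fewer cells of a type and less RNA per cell cannot be told apart. BraA08g030380.3C, a match to WRKY4 named after its values were seen, was the remaining lower gene of group I, with 18.3, 27.9 and 34.8 normalised reads in ‘FT’ and 1.89, 1.93 and 0 in ‘CX001’ (log2 difference -3.73, SE 0.56, adjusted p = 0.00097), and ‘CX001’ was close to 0 in every library.

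Group IIc holds WRKY12 and WRKY13, which have opposed roles in the Arabidopsis stem. WRKY12 keeps pith cells from forming secondary walls and promotes flowering in short days, whereas WRKY13 promotes lignin formation in stems and delays flowering in short days. Of the 3 genes matched to WRKY12, 1 passed. BraA05g004630.3C was 6.81-fold higher in ‘CX001’, with 41.4, 25.04 and 20.03 normalised reads in ‘FT’ and 180.3, 161 and 247 in ‘CX001’ (log2 difference 2.77, SE 0.32, adjusted p = 0.00028), and the lines were far apart. BraA03g023460.3C, the copy with most reads in ‘FT’, had 246, 317 and 153 normalised reads in the ‘FT’ libraries and 145, 90.7 and 149 in those of ‘CX001’. Its lines were separated by a small gap, with ‘CX001’ below ‘FT’, and it did not reach the fold required (log2 difference -0.86, SE 0.31, adjusted p = 0.048). It passed as lower without ‘FT’ library 3 (-1.15, adjusted p = 0.019), which would put 2 copies of WRKY12 on opposite sides. BraA04g030970.3C had 77.96, 55.9 and 31.6 normalised reads in ‘FT’ and 81.2, 70.4 and 245 in ‘CX001’ (log2 difference 1.10, SE 0.52, adjusted p = 0.11), with overlapping lines. The difference between the copies was not tested.

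Of the 3 genes matched to WRKY13, 2 were lower in ‘CX001’ and none was higher. BraA06g044350.3C had 328, 189.7 and 143 normalised reads in ‘FT’ and 53.8, 35.7 and 24.6 in ‘CX001’, a 5.79-fold lower mean (log2 difference -2.49, SE 0.38, adjusted p = 0.0012). BraA08g022420.3C had 96.2, 101 and 92.8 normalised reads in the ‘FT’ libraries and 28.3, 24.1 and 53.6 in those of ‘CX001’ (log2 difference -1.51, SE 0.33, adjusted p = 0.0063). In both, all ‘CX001’ libraries were below all of ‘FT’. BraA01g000440.3C had 104, 85.7 and 72.7 normalised reads in ‘FT’ and 74.6, 70.4 and 105 in ‘CX001’ and did not separate the lines (log2 difference -0.08, SE 0.25, adjusted p = 0.82). Beside these stem wall factors, the summed level of 8 genes matched to the xylem markers CESA7, XCP1 and XCP2 was 3727, 2853 and 3866 normalised reads in the ‘FT’ libraries and 4903, 8483 and 11359 in those of ‘CX001’, with 4 of the 8 higher and none lower. The 4 genes matched to the phloem markers APL and SEOB summed to between 963 and 1385 in ‘FT’ and between 1500 and 1816 in ‘CX001’, with 1 lower. None of these markers was at 0 in a line. The part of stem tissue composition in the WRKY12 and WRKY13 values was not tested.

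The other group IIc calls were all higher in ‘CX001’. WRKY48 holds back basal defence in Arabidopsis, and 2 of its 3 matches passed. BraA02g040310.3C had 11.6, 14.4 and 8.43 normalised reads in ‘FT’ and 51.9, 84.9 and 86.8 in ‘CX001’ (log2 difference 2.59, SE 0.35, adjusted p = 0.00062). BraA09g004570.3C had 24.1, 11.6 and 52.7 normalised reads in the ‘FT’ libraries and 100.05, 236 and 73.9 in those of ‘CX001’ (log2 difference 2.24, SE 0.60, adjusted p = 0.015). The second protein match of the latter gene named WRKY75 instead, so its assignment to WRKY48 is uncertain. The lines did not overlap in either gene, but BraA09g004570.3C lost its call without ‘CX001’ library 2, its highest (1.76, adjusted p = 0.058). The copy with most reads, 261 in ‘FT’ and 267 in ‘CX001’ by line means, did not differ past the criteria.

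WRKY50, which activates the defence gene PR1 in Arabidopsis, had 1 of 3 matches called. BraA02g041180.3C had 33.7, 27.9 and 17.9 normalised reads in ‘FT’ and 82.1, 51.1 and 62.1 in ‘CX001’ (log2 difference 1.28, SE 0.34, adjusted p = 0.015), with a gap between the lines. BraA09g019700.3C, a match to WRKY49 named after its values were seen, had 1.93, 9.63 and 1.05 normalised reads in ‘FT’ and 27.4, 44.4 and 32.1 in ‘CX001’ (log2 difference 3.13, SE 0.63, adjusted p = 0.0043), and ‘FT’ was close to 0 in 2 of its libraries. WRKY71 promotes shoot branching and early flowering in Arabidopsis. Its match BraA09g035200.3C had 3.85, 3.85 and 2.11 normalised reads in the ‘FT’ libraries and 12.3, 14.5 and 7.50 in those of ‘CX001’ (log2 difference 1.53, SE 0.45, adjusted p = 0.024), a difference at low level whose adjusted p rose to 0.064 without ‘FT’ library 3, 0.051 without ‘CX001’ library 1 and 0.072 without ‘CX001’ library 2. The other match to WRKY71, BraA07g010810.3C, was too low to be tested, with 1 read in ‘FT’. No member had WRKY75 as its Swiss-Prot best match, but the second protein match of the WRKY48 copy BraA09g004570.3C named it.

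Groups IIb, IId and IIe had few calls. In group IIb, BraA09g002340.3C, a match to WRKY47, had 5.78, 7.70 and 7.38 normalised reads in ‘FT’ and 32.1, 93.6 and 67.5 in ‘CX001’, a 9.26-fold higher mean (log2 difference 2.92, SE 0.44, adjusted p = 0.0011). BraA01g012730.3C, a match to WRKY31 named after its values were seen, passed as lower although its lines touched, with 23.1, 5.78 and 31.6 normalised reads in ‘FT’ and 0, 5.79 and 1.07 in ‘CX001’ (log2 difference -2.86, SE 0.84, adjusted p = 0.023). It was the only called WRKY factor gene whose lines overlapped, and its call was lost without ‘FT’ library 1 (-2.62, adjusted p = 0.079), ‘FT’ library 3 (-2.40, adjusted p = 0.088), ‘CX001’ library 1 (-2.22, adjusted p = 0.066) or ‘CX001’ library 3 (-2.74, adjusted p = 0.062).

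Group IId factors bind calmodulin in Arabidopsis and so lie within reach of calcium signals. All 14 of them were expressed highly enough to be tested, and 12 did not pass. BraA04g017140.3C, a match to WRKY15, which acts in growth and salt stress, had 43.3, 81.8 and 50.6 normalised reads in the ‘FT’ libraries and 129, 235 and 208 in those of ‘CX001’ (log2 difference 1.69, SE 0.32, adjusted p = 0.0032). BraA03g016330.3C, a match to WRKY21 named after its values were seen, had 208, 148 and 133 normalised reads in ‘FT’ and 65.1, 59.8 and 59.99 in ‘CX001’ (log2 difference -1.36, SE 0.23, adjusted p = 0.0018). Neither gene had overlapping lines. The other matches to WRKY21, also named after their values were seen, had higher means in ‘CX001’ without overlap but fell short of the fold required. BraA04g021880.3C had means of 175 normalised reads in ‘FT’ and 256 in ‘CX001’ (log2 difference 0.53, adjusted p = 0.027). BraA05g013800.3C had 98.3 and 161 (log2 difference 0.72, adjusted p = 0.02). Adjusted p was below 0.05 for 7 of the 14 in group IId, and 5 of these fell short of the fold required. Over all genes it was below 0.05 for 12755 of 26424, a like share, and 4834 of those fell short of the fold. The 7 tested genes of group IIe, with matches to WRKY14, WRKY22, WRKY27, WRKY35 and WRKY69, had overlapping lines without exception and a median size of the log2 difference of 0.16.

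**Figure D3:**
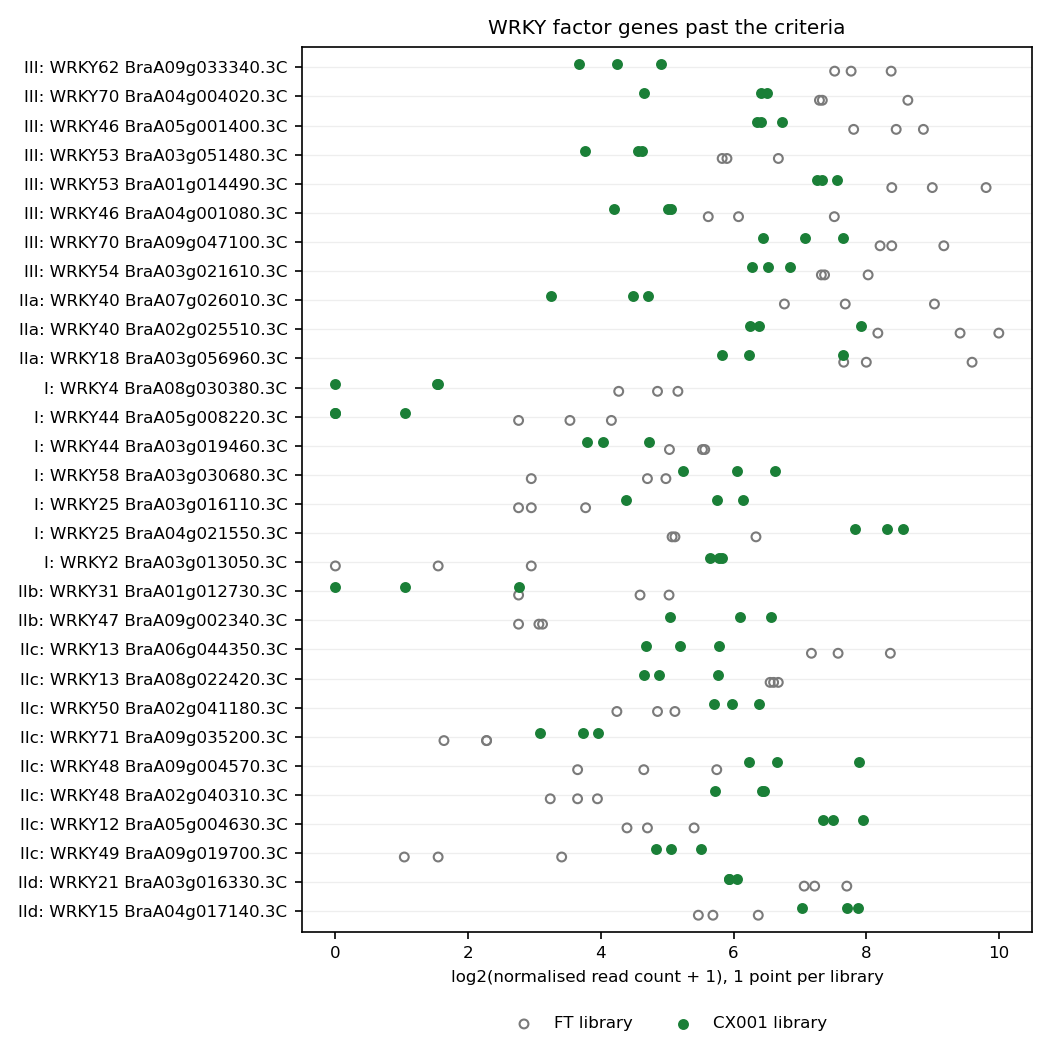
Log2(normalised read count + 1) in each library of the 30 WRKY factor genes that passed the criteria, ordered by structural group, with open grey points for the 3 ‘FT’ libraries and filled green points for the 3 ‘CX001’ libraries. The 8 genes of group III and the 3 of group IIa have ‘CX001’ to the left of ‘FT’, and 6 of the 8 genes of group IIc have it to the right.

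The matches to WRKY16 and WRKY19 held the largest differences among the members, and several were all but absent from 1 line. Of the 12 tested, 2 were higher in ‘CX001’ (16.7%, against 14.2% of all genes tested) and 4 were lower (33.3%, against 15.8%). BraA09g021140.3C, a match to WRKY16 with a coding length of 6660 bases at A09:13735674-13743344 in the B. rapa V3.0 genome, had 291, 341 and 262 normalised reads in ‘FT’ and 0, 0 and 0 in ‘CX001’. Its level was at least 278-fold lower in ‘CX001’, against a floor of 3 reads over the 3 libraries. BraA08g021000.3C, also matched to WRKY16 and found at A08:15969243-15976221, had 296, 331 and 206 normalised reads in the ‘FT’ libraries and 0.944, 0.965 and 0 in those of ‘CX001’. The 2 reads in ‘CX001’ amount to 0.229% of the ‘FT’ level (95% exact Poisson interval 0.0277 to 0.828%).

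WRKY19 was the one name whose copies were called in opposite directions. BraA03g027760.3C (A03:13827467-13831890) had 250.2, 246 and 167 normalised reads in ‘FT’ and 0, 1.93 and 0 in ‘CX001’. Its ‘CX001’ level was 0.291% of that in ‘FT’ (95% exact Poisson interval 0.0353 to 1.05%). BraA03g048830.3C (A03:24849634-24854201) showed the reverse, with 0, 0 and 4.22 normalised reads in ‘FT’ and 405, 373 and 371 in ‘CX001’, a 272-fold higher mean (log2 difference 7.79, SE 0.63, adjusted p = 4.3e-05), and its few ‘FT’ reads all came from library 3. BraA09g026560.3C was listed with no reads in ‘FT’ and had 17.9, 8.69 and 13.9 normalised reads in the ‘CX001’ libraries, at least 12.8-fold higher against the same floor. In each of these 5 genes all 3 libraries of 1 line held reads, and the other line had between 0 and 4 reads in all. The second protein match named a disease resistance protein for 4 of the 16, a WRKY protein for 6 and another protein for the other 6. Reads from genes of such a multigene family may be split between copies in counting, and whether a gene with no reads is missing from the genome of a line or differs from the reference was not tested.

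A further gene, BraA09g013590.3C of the eggNOG family virNOG00732, had 476, 455 and 478 normalised reads in the ‘FT’ libraries and 180.3, 162 and 206 in those of ‘CX001’ (log2 difference -1.36, SE 0.14, adjusted p = 0.00017), with very even values within each line. The other 5 genes of that family did not pass. Among them were BraA09g014640.3C and BraA06g028010.3C, which with 711 normalised reads per kilobase of coding sequence in ‘CX001’ and 688 in ‘FT’ belonged to the 5 highest members. BraA09g014640.3C had 1220.4, 1278 and 1289 normalised reads in ‘FT’ and 1417, 1311 and 1411 in ‘CX001’ (log2 difference 0.13, SE 0.11, adjusted p = 0.35). BraA06g028010.3C had 1180.0, 1208 and 1324 normalised reads in ‘FT’ and 948, 511 and 811 in ‘CX001’ (log2 difference -0.75, SE 0.22, adjusted p = 0.021). The second protein match of the former named an uncharacterised protein and that of the latter a filaggrin, so neither is described here as a WRKY factor.

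**Figure D4:**
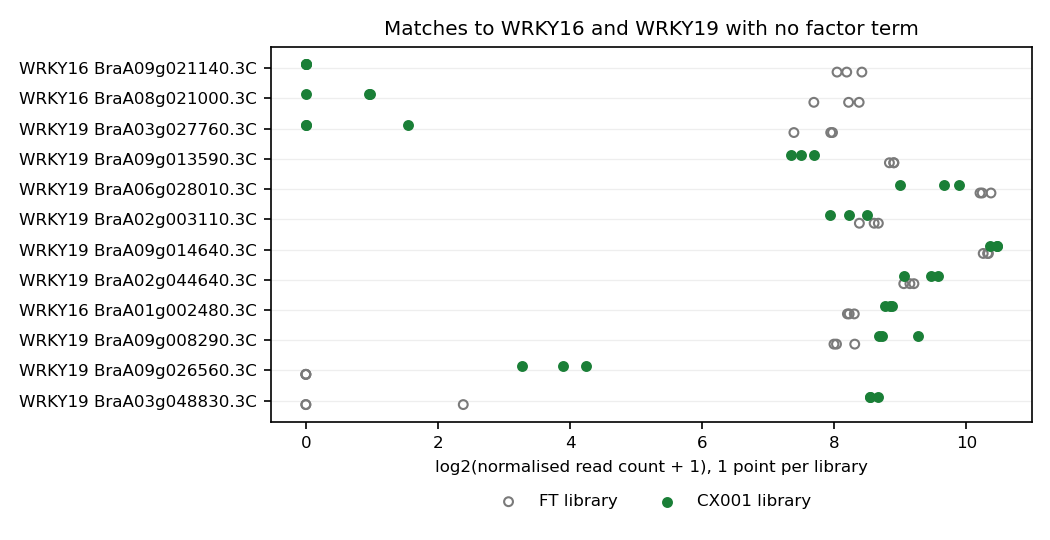
Log2(normalised read count + 1) in each library of the 12 tested genes matched to WRKY16 or WRKY19, which did not have both GO terms. They are ordered by log2 difference, with open grey points for ‘FT’ and filled green points for ‘CX001’. BraA09g021140.3C lies at 0 in all 3 ‘CX001’ libraries and BraA09g026560.3C at 0 in all 3 ‘FT’ libraries, while the genes in the middle have both lines close together.

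Calls often did not cover all copies of a factor. B. rapa has a triplicated genome, and of the 60 Arabidopsis WRKY factors matched by factor genes, 23 had 1 copy, 17 had 2, 19 had 3 and 1 had more. Of the factors with several copies, 18 had at least 1 copy called, and in 16 of these at least 1 other copy was not called or not tested. Of the WRKY factor genes tested 33.7% were called, against 30.0% of all genes tested, so a gene was more often uncalled than called in either set. How often copies of other genes share a call was not examined. All copies were called for WRKY44 and WRKY53, both lower. None of the 60 had copies called in opposite directions. Only 22 of the 60 had any copy called, and opposite calls need at least 2 called copies, so most factors could not show them. Differences between copies were not tested, and reads of near-identical copies may have been split between them.

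The members lay on all 10 chromosomes, from 2 on A10 to 24 on A09, with 1 each on 2 scaffolds. Only 4 pairs of neighbouring members were within 50 kb of each other. The closest, the matches to WRKY55 and WRKY54 on chromosome A04, were 1883 bases apart, and neither was called. The 33 members not tested were low in both lines, with line means of at most 9.76 normalised reads in ‘FT’ and 6.20 in ‘CX001’. Of these 33, 10 had no reads in ‘FT’ and 11 had none in ‘CX001’, and no member was without reads in both.

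The genes around the WRKY factors were read from a list of 80 genes whose descriptions named a WRKY partner, a kinase that acts on WRKY proteins or a target known in Arabidopsis. Of these, 60 were tested, 6 were higher in ‘CX001’ and 17 lower (10% and 28.3%, against backgrounds of 14.2% and 15.8%), and 37 did not pass. The median log2 difference of the list was -0.18. Of the genes named below with a value in every library, those outside the 4 smallest adjusted p-values in a direction were chosen after their values were seen.

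The partner proteins came first. SIB1 and SIB2 are sigma factor binding proteins with a VQ motif that bind WRKY33 and raise its activity in Arabidopsis. All 5 of their tested matches were lower in ‘CX001’ (background 15.8%), with a median log2 difference of -1.78. BraA07g022510.3C (SIB1) had 286, 284 and 205 normalised reads in the ‘FT’ libraries and 8.49, 9.65 and 14.997 in those of ‘CX001’, a mean of 258 against 11.05 (log2 difference -4.45, SE 0.30, adjusted p = 1.8e-05). BraA09g047340.3C (SIB1) had 491, 462 and 463 normalised reads in ‘FT’ and 171, 80.1 and 187 in ‘CX001’ (log2 difference -1.78, SE 0.30, adjusted p = 0.0018). The lines did not overlap in any of the 5, but with a library left out the number called fell to 2 without ‘FT’ library 1, ‘FT’ library 3 or ‘CX001’ library 2, to 3 without ‘FT’ library 2 or ‘CX001’ library 3, and to 4 without ‘CX001’ library 1. MKS1, a VQ protein that holds WRKY33 and WRKY25 to the kinase MPK4, had 1 of 3 matches lower, BraA05g028660.3C, with 50.05, 49.1 and 81.2 normalised reads in ‘FT’ and 19.8, 22.2 and 19.3 in ‘CX001’ (log2 difference -1.47, SE 0.31, adjusted p = 0.0054).

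Of 28 genes matched to other VQ proteins, 17 were tested, 2 were higher and 3 lower. These shares, 11.8% and 17.6%, lay close to the backgrounds of 14.2% and 15.8%. The higher pair were BraA02g014380.3C (VQ33), with 167, 131 and 137 normalised reads in the ‘FT’ libraries and 357, 499 and 558 in those of ‘CX001’ (log2 difference 1.68, SE 0.20, adjusted p = 0.00034), and BraA10g030780.3C (VQ31), with 7.70, 8.67 and 8.43 normalised reads in ‘FT’ and 48.1, 81.1 and 122 in ‘CX001’ (log2 difference 3.10, SE 0.39, adjusted p = 0.00042). BraA07g041450.3C, a match to VQ9, which binds WRKY8 in the Arabidopsis salt response, had 47.2, 55.9 and 51.7 normalised reads in ‘FT’ and 6.61, 5.79 and 4.28 in ‘CX001’ (log2 difference -3.01, SE 0.33, adjusted p = 0.00022). Lines were separated in all 3. The other VQ9 match, BraA02g024650.3C, had more reads and overlapping lines, with a mean of 113 normalised reads in each line (log2 difference -0.06, adjusted p = 0.9). All 3 matches to WRKY8 itself were too low to be tested.

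The MAP kinase cascade carries signals from receptors at the cell surface to WRKY proteins. Of 14 tested members, 4 were lower and none higher (28.6% and 0%, against backgrounds of 15.8% and 14.2%). The largest difference was in BraA07g028710.3C, a match to MKK9, which acts in ethylene and camalexin formation in Arabidopsis. It had 715, 387 and 403 normalised reads in the ‘FT’ libraries and 18.9, 7.72 and 23.6 in those of ‘CX001’, a mean of 502 against 16.7 (log2 difference -4.90, SE 0.42, adjusted p = 6.2e-05), and no library of one line approached the other. The other 3 were matches to MKK9, MKK4 and MKK5, the last pair being the kinases that activate MPK3 and MPK6. Other tested copies of that pair were not called and had higher means in ‘CX001’. BraA08g002490.3C (MKK4) had a mean of 390 normalised reads in ‘FT’ and 524 in ‘CX001’ (log2 difference 0.45, adjusted p = 0.11). BraA03g039670.3C (MKK5) had 67.6 and 128, without overlap and just short of the fold required (log2 difference 0.99, adjusted p = 0.043). Without ‘FT’ library 2 only 2 of the 14 were called lower. Of 5 calcium-dependent kinase genes tested, 2 were higher (40%, against a background of 14.2%) and none was lower. BraA03g026960.3C (CPK4) had 529, 477 and 467 normalised reads in ‘FT’ and 941, 1049 and 978 in ‘CX001’ (log2 difference 1.01, SE 0.12, adjusted p = 0.00027), at the edge of the fold required, which it missed without ‘FT’ library 2 (0.99), ‘FT’ library 3 (0.97) or ‘CX001’ library 2 (0.97). BraA09g010840.3C (CPK6) had 21.2, 7.70 and 26.4 normalised reads in ‘FT’ and 71.7, 126 and 111 in ‘CX001’ (log2 difference 2.54, SE 0.47, adjusted p = 0.0028).

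Among defence and ethylene genes that WRKY factors act on in Arabidopsis, 10 were tested and 4 were lower (40%, against a background of 15.8%), with none higher. Of the 10 log2 differences, 8 were below 0 and 2 above. BraA03g042600.3C, a match to PRB1, a basic form of the defence protein PR1, had 2063, 979 and 1871 normalised reads in the ‘FT’ libraries and 50.02, 69.5 and 115 in those of ‘CX001’, a mean of 1638 against 78.0 (log2 difference -4.38, SE 0.36, adjusted p = 4.6e-05). BraA09g043570.3C, a match to PAD4, which drives salicylic acid defence, had 1498, 1556 and 1533 normalised reads in ‘FT’ and 207, 415 and 382 in ‘CX001’ (log2 difference -2.25, SE 0.25, adjusted p = 0.0002). In both, the ‘FT’ libraries were all far above those of ‘CX001’. BraA07g028130.3C, a match to ICS1, the enzyme of salicylic acid synthesis, had 684, 789.6 and 834 normalised reads in ‘FT’ and 137, 95.5 and 399.6 in ‘CX001’ (log2 difference -2.14, SE 0.45, adjusted p = 0.0055). BraA09g027250.3C, a match to ACS6, an enzyme of ethylene synthesis, had 1107, 1048 and 1616 normalised reads in the ‘FT’ libraries and 249, 434 and 183 in those of ‘CX001’ (log2 difference -2.18, SE 0.31, adjusted p = 0.00075). All 4 stayed called whichever library was left out. The other 6 tested genes did not pass. A further 6 of the 16 listed, among them the other PRB1 matches, were too low to be tested. Of the other PAD4 matches, BraA03g046040.3C had means of 1217 in ‘FT’ and 1647 in ‘CX001’ (log2 difference 0.43, adjusted p = 0.1). BraA04g006940.3C had 711 and 690 (log2 difference -0.08, adjusted p = 0.83). BraA02g022480.3C, a further ICS1 match, had 11.4 and 17.5 (log2 difference 0.71, adjusted p = 0.26). The matches to NPR1 had log2 differences of -0.24, -0.42 and -0.46.

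The secondary wall regulators of the NAC family include targets that WRKY12 represses in Arabidopsis. All 6 genes matched to NAC043, NAC066 and NAC012 had a log2 difference above 0, 2 passed (33.3%, against a background of 14.2%) and 4 did not. BraA05g022960.3C (NAC012) had 4.81, 10.6 and 3.16 normalised reads in ‘FT’ and 57.6, 91.7 and 194 in ‘CX001’ (log2 difference 3.96, SE 0.55, adjusted p = 0.00068). BraA07g024910.3C (NAC066) had 0.963, 0 and 0 normalised reads in ‘FT’ and 4.72, 7.72 and 33.2 in ‘CX001’ (log2 difference 3.25, SE 0.73, adjusted p = 0.0072), with a single read in ‘FT’. In each of the 6 genes ‘CX001’ library 3 was the highest of all libraries, as it was for the summed xylem markers. The part of xylem content in these values was not tested.

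**Figure D5:**
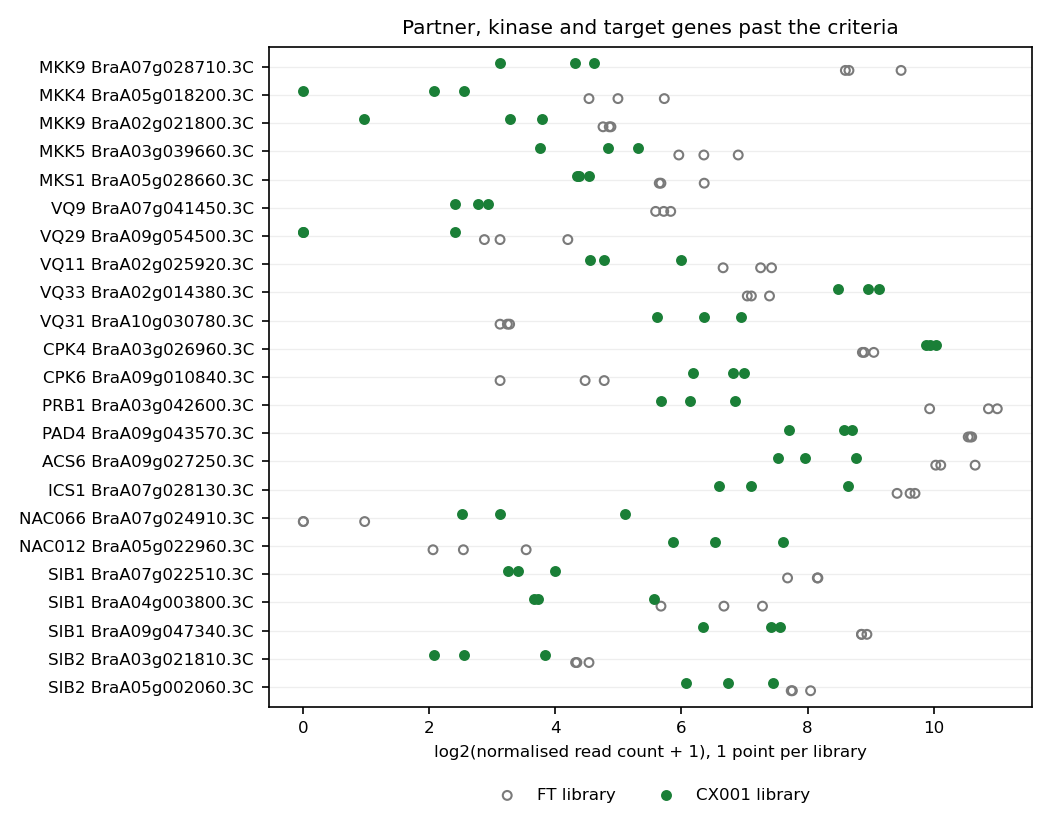
Log2(normalised read count + 1) in each library of the 23 partner, kinase and target genes that passed the criteria, with open grey points for the 3 ‘FT’ libraries and filled green points for the 3 ‘CX001’ libraries. The points of the SIB1 match BraA07g022510.3C (means 258 and 11.05) and of the MKK9 match BraA07g028710.3C (means 502 and 16.7) show wide gaps with ‘CX001’ lower, and that of NAC012 one with ‘CX001’ higher.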

How the data were processed

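Total RNA from stems of ‘FT’ and ‘CX001’ was sequenced by the authors as paired-end libraries, 3 per line. By their methods, the authors removed reads with adapters, poly-A or poly-G tracts or low quality, aligned the rest with HISAT2, assembled transcripts with StringTie and tested the lines with DESeq2. TopHat2 is named beside HISAT2 in the submitters' processing notes. How reads matching several genes were counted is not given in the sources used here. Gene identifiers and coordinates are those of B. rapa genome V3.0, as the authors' table gives them, and gene names are the best protein matches in that table. The signal values used are those deposited by the authors, the mean over the 3 libraries of a line of read counts divided by size factors, for 33087 genes. The table also holds the authors' fold changes, p-values, adjusted p-values and calls, which were not used.

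The values are written to 15 digits, and the smallest means repeat at 3 steps per line, which are the contribution of 1 read in each library. For every mean up to 10000, the whole numbers of reads that give it within 1.5 roundings of the last digit were searched. A single combination was found for 32966 means in ‘FT’ and 32951 in ‘CX001’, 100.0% of those tried. None of 2000 random numbers per line gave a match, and 2000 of 2000 simulated means per line gave their reads back. The 176 genes with a mean above 10000 in a line were left out, as were 6487 with an average below 5. The size factors so found lay between 0.934 and 1.06.

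The recovered normalised values were compared on the scale log2(value + 1), which understates the change of low genes, with limma 3.58.1 in R 4.3.3 (empirical Bayes with a mean-variance trend), and p-values were adjusted by Benjamini-Hochberg over the 26424 genes tested. A gene was called at an adjusted p under 0.05 and a log2 difference over 1 in size, the criteria of the study. An exact permutation test of 3 against 3 libraries cannot go below p = 0.1 and was not used. In data simulated over 26389 genes, the test recovered 99 of 100 genes changed 4-fold and 83 of 100 changed 2.5-fold, and called 3 of 26189 unchanged genes. The simulation gave every gene the same dispersion of 0.05 and changed few genes, whereas 30.0% of genes were called here. It did not model the wider spread of the WRKY factor genes tested (median standard deviation 0.47 and 0.48, against 0.23 and 0.26 over all genes tested). Its rates therefore need not hold for the members. Python 3.11.15 was used for the other steps. Where a line had no reads, the fold is a bound against 3 reads over its libraries, and with 1 to 3 reads the share of the other line is given with a 95% exact Poisson interval of the low count. These cover counting error only.

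The members and the list of partners and targets were chosen with earlier results of these data known. Members named are the 10 called members with the largest rise and the 10 with the largest fall among those with at least 50 normalised reads in the higher line, all matches to WRKY12, WRKY13, WRKY18, WRKY33, WRKY40, WRKY44, WRKY53, WRKY70 and WRKY71 (WRKY60 and WRKY75 were no member's Swiss-Prot best match), the 5 highest per coding length, and copies of 1 match called in opposite directions. Of the list, up to 4 called genes per direction with the smallest adjusted p are named. Structural groups follow the number of the Arabidopsis match. Alternatives were the pseudocount, the minimum level, the fold minimum, the normalisation, the variance model, line means alone, leaving out each library, and, added after seeing the data, the WRKY factor genes alone. No sequences are shown.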

Additional observations from a re-analysis of the deposited data

How the results depend on the processing

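The count of called WRKY members, 36 of 101, stayed between 31 and 36 when each library was left out in turn (11 to 14 higher, 18 to 22 lower), and that of partner and target genes, 23 of 60, between 17 and 23 (5 to 7 higher, 12 to 16 lower). Both totals moved past 1.5 times only when an average of at least 50 normalised reads was required, which left 60 members tested and 22 called (5 higher, 17 lower), and 39 partner and target genes tested and 15 called (4 higher, 11 lower). The 22 are all among the 36, and fewer genes were tested. The other member counts were 36 with a pseudocount of 0.5, 35 with 5, 42 without the minimum level, 35 after quantile normalisation, 35 without the variance trend, 37 with voom weights, 52 without the fold minimum (22 higher, 30 lower) and 43 from line means alone. Without the fold minimum the partner and target genes called were 29 (10 higher, 19 lower), so the higher calls alone moved past 1.5 times in both lists. With the WRKY factor genes alone, chosen after seeing the data, the count was 30. All genes shifted by at most 0.04 in the median log2 difference under any of these scalings. For 71 of the named or called genes with a fit, 974 of 1040 values under the alternatives kept their call, 60 lost it and 6 gained it. None changed direction with a call. Of 59 called genes, 43 kept their call under every alternative run on them and 16 lost it under at least 1. No paired analysis was possible because the recovered libraries carry no replicate number and could not be matched to the numbering of the study. Genes of few reads limit the tests, since 33 members lay below the minimum level.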
